A study of Mus musculus with 18 samples.

Results

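Origin, fork and nucleotide supply genes of DNA replication were followed through mouse heart muscle cells sorted as mononucleated or binucleated. The set is a list of 48 genes chosen by name for their role in replication, with the Mcm2 to Mcm7 helicase genes left out. All 48 were measured, among 12048 genes in each deposited table. The mice were Mlc2vcre:R26REYFP, so Cre recombinase driven by the ventricular light chain gene Mlc2v (Myl2) turned on a yellow fluorescent protein. Every group carried both alleles, so there was no group without Cre. Sorting by FACS gave mononucleated and binucleated cardiomyocytes at E18.5, before birth, at P7, in the postnatal period, and in the adult, for which the labels give no age in weeks. Each of the 6 groups had 3 libraries, 18 in all, and the series set the classes side by side to ask what goes with their different ability to proliferate. Cre under Mlc2v marks ventricular muscle, and the labels do not say by which signal the sort told the classes apart.

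A replication origin is bound by the origin recognition complex, and Cdc6 and Cdt1 then load the Mcm helicase there, a step called licensing that geminin blocks. Cdc45 and the GINS complex turn the loaded helicase on, DNA polymerase alpha with its primase starts each strand, and polymerases delta and epsilon extend it on the sliding clamp Pcna, which the RFC complex loads. RPA coats the exposed single strands, Fen1 and Lig1 join the lagging strand pieces, ribonucleotide reductase, thymidylate synthase and thymidine kinase supply the building blocks, and CAF-1 rebuilds chromatin behind the fork. In the mouse heart most muscle cells stop dividing soon after birth, and many pass through a round of DNA synthesis without cell division that leaves them with a pair of nuclei.

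Many promoters of replication genes carry a binding motif of the E2F transcription factors, so the letters of that motif were searched first. RefSeq promoter windows (build GRCm38.p6, 250 bases before to 50 bases after each annotated start, 300 bases in all) were matched for 40 of the 48 genes, in 48 windows. Gins1, Gins2, Gins4, Gmnn, Pole, Prim2, Rfc2 and Tipin had no entry. Searched on both strands, the 4 forms TTTCCCGC, TTTCGCGC, TTTGCCGC and TTTGGCGC lay in a window of 13 of the 40 genes (32.5%), against 4.78% of 9376 genes of the expression table and 2.6% of all 27025 genes with a window. Their 7-letter core, which leaves off the first T and is contained in every longer form, lay in 26 of 40 genes (65%), against 20% and 10.9%. The CCAAT box was in 20 of 40 (50%, against 43.3% and 41.1%). The cell cycle element TTTGAA was in 4 of 40 (10%, against 14.1% and 20.2%).

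These shares describe letters in a window and not bound sites. The longer form was in 9 of the 25 matched genes that were lower in binucleated cells at P7, as given further on, and in 4 of the 15 matched genes that did not pass that test. Because the motif occurs in both kinds of gene, the stretches are shown for all 13 carriers, 30 bases each with the motif in capitals, from the strand of the gene. The 9 carriers that were lower come first.
Cdc6: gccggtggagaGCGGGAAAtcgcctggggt, at chr11:98908002-98908031, plus strand.
Cdt1: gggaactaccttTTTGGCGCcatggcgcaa, at chr8:122568035-122568064, plus strand.
Gins3: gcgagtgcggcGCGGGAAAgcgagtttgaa, at chr8:95633507-95633536, plus strand.
Pold1: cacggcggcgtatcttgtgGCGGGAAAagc, at chr7:44548766-44548795, minus strand.
Pold3: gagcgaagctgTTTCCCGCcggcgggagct, at chr7:100121467-100121496, minus strand.
Pole2: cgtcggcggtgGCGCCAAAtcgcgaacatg, at chr12:69228162-69228191, minus strand.
Rfc3: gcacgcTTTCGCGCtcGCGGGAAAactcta, at chr5:151651195-151651224, minus strand.
Lig1: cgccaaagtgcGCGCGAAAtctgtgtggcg, at chr7:13278841-13278870, plus strand.
Clspn: accgcgtctggGCGCGAAAgctcgaacttc, at chr4:126556990-126557019, plus strand.
The 4 carriers that did not pass at P7 hold the same letters.
Orc1: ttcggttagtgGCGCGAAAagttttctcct, at chr4:108579416-108579445, plus strand.
Orc3: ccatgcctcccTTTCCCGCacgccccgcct, at chr4:34614965-34614994, minus strand.
Pola1: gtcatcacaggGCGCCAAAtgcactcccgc, at chrX:93632275-93632304, minus strand.
Pole4: ctctacccggcGCGGGAAAggggccgaaat, at chr6:82652890-82652919, minus strand.
The core was in 17 of the 25 matched genes that were lower at P7 and in 9 of the 15 that did not pass. Orc4, Pole3, Rfc1, Rpa3 and Wdhd1, which did not pass, hold the core without the longer form. So do Rrm2 and Rfc4, which were lower, and the stretches of these genes are not shown. Rpa2 and the primase gene Prim1, each the first or second of its role by adjusted p at P7, hold only the core before their start, as does Chaf1a, which holds it at 2 places.
Rpa2: gctgtcccttcGCGGGAAggagtttgtggc, at chr4:132768312-132768341, plus strand.
Prim1: ggcctgtcttgTTCCCGCcaattctcgtgt, at chr10:128015189-128015218, plus strand.
Chaf1a: gcggtggTTGCCGCggTTCCCGCcaaatac, at chr17:56040353-56040382, plus strand.
Rfc3 holds 2 of the longer forms side by side across its start. Orc3, which carries the motif, was the member that differed least between the classes at P7.

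Levels are given as normalized CPM: the read count recovered from the deposited log2 value times the factor of its library, scaled to the geometric mean of the library totals. Totals ran from 14833334 to 22690952 counts per library, and members had a mean of at least 33.9 counts. Cardiomyocyte markers summed to 40510 to 58720 CPM in every library, and the markers of fibroblasts, endothelium and leukocytes to at most 869, 102 and 37.6 CPM. Pericyte and smooth muscle markers summed to 163 to 1584 CPM and erythroid ones to at most 177. E18.5 binucleated replicate 1 stood apart: its log2 values departed from its fellow replicates by 1.22 (SD over all genes), where the 17 other libraries departed by 0.46 to 0.84. P7 mononucleated replicate 1 was low for these genes, with 3 of 48 above the mean of the other replicates and a median of −0.42. P7 binucleated replicate 2 (6 of 48, −0.20) and adult mononucleated replicate 1 (11 of 48, −0.21) were low too. P7 mononucleated replicates 2 and 3 (42 and 38 of 48) and P7 binucleated replicate 3 (41 of 48, 0.23) were high. In such bulk samples fewer cells in S phase and less RNA per cell cannot be told apart.

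Summed over all 48 genes, the level was 2473 to 2565 CPM in E18.5 mononucleated, 2521 to 2718 in E18.5 binucleated, 2406 to 3204 in the mononucleated and 1293 to 1463 in the binucleated libraries of P7. Adult mononucleated libraries had 983 to 1135 and adult binucleated ones 1033 to 1113. The classes thus lay together before birth, stood apart at P7 with no overlap and lay together again at a lower level in the adult. By group means, 33 genes were highest in P7 mononucleated cells, 13 at E18.5 (9 of them in the binucleated group), 1 in P7 binucleated and 1 in adult binucleated cells. Adult groups held the lowest mean of 42 genes. Divided by exon length, Rrm2 led in E18.5 and P7 mononucleated cells (101 and 114 CPM per kb of exon), Pole4 led in P7 binucleated cells (39.5) and Gmnn led in adult mononucleated cells (68.8).

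**Figure D1:**
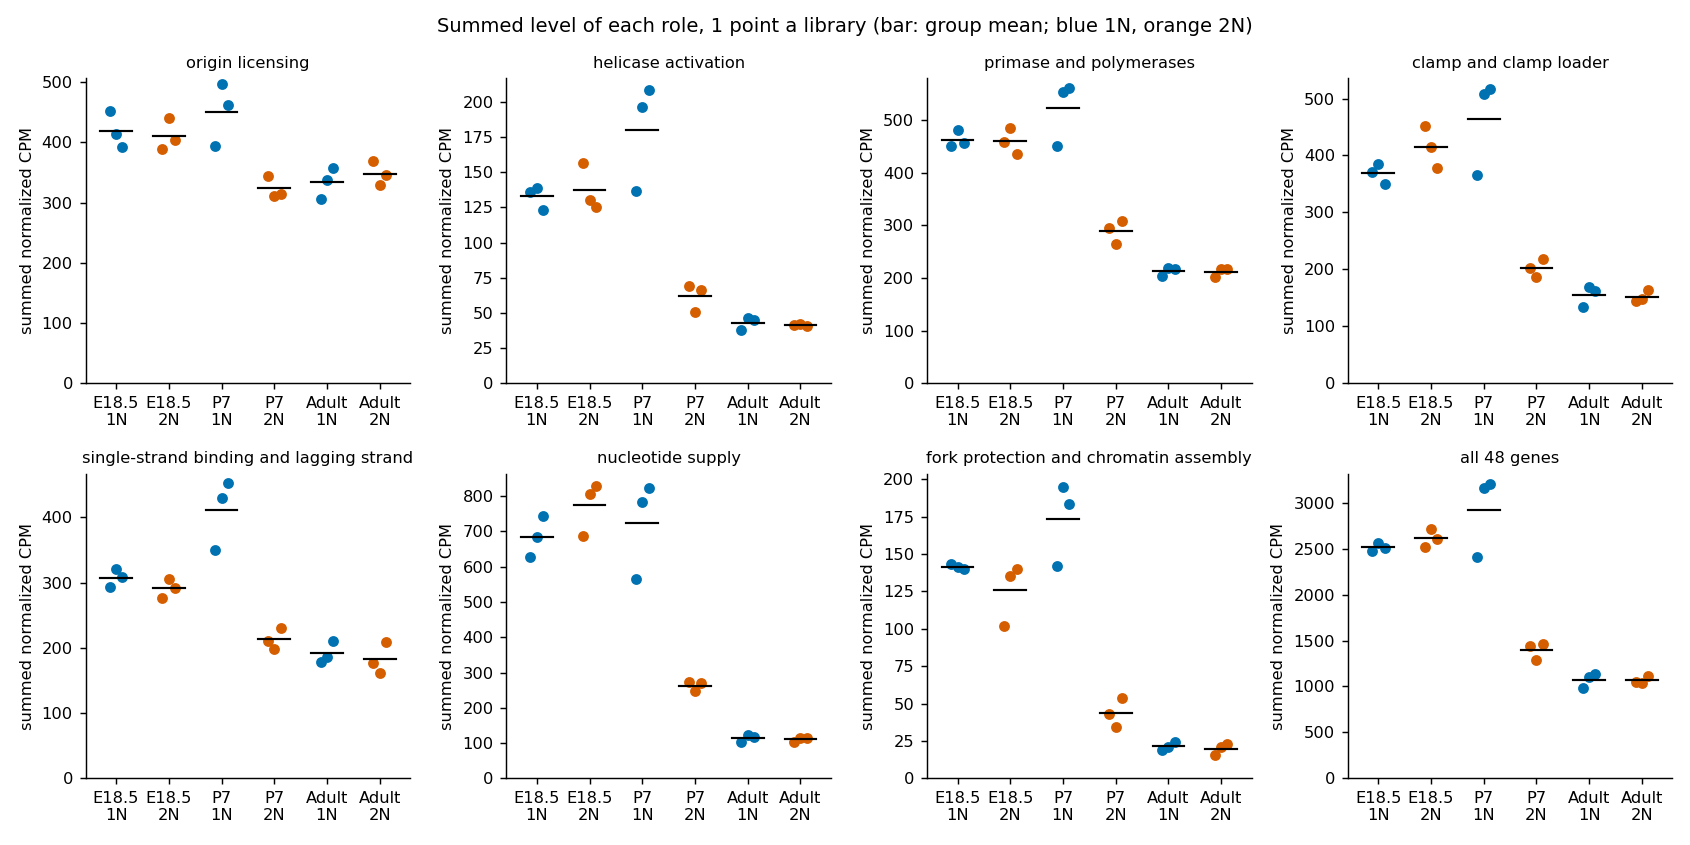
Summed normalized CPM of each of the 7 roles and of all 48 genes (vertical axis, linear from 0) in the 6 groups, with 1 point for each library and a bar at the group mean. The 3 P7 binucleated points lie below the 3 P7 mononucleated points in every panel, and the E18.5 classes and the adult classes lie close together.

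At E18.5 the classes did not differ detectably in these genes. With limma's moderated test, adjusted by Benjamini and Hochberg over all 12048 genes at a threshold of 0.05, 0 of 48 passed, against 0.805% of all genes. At that share a list of 48 would hold few or no calls, so the 0 shows nothing particular to these genes. At an unadjusted p under 0.05 there were 2, against 1679 of all 12048 genes. Voom weights on recovered counts also gave 0 adjusted calls, and that count stayed 0 without each of the 18 libraries. The median log2 fold change was −0.05 (−0.74 to 0.48), beside −0.01 over all genes. Markers of other cells went with the class here: 5 of 7 measured fibroblast, 4 of 9 endothelial and 4 of 5 leukocyte markers were higher in binucleated libraries. Fibroblast markers summed to 301 to 869 CPM there and to 47.2 to 94.4 in mononucleated libraries, endothelial markers to 52.3 to 100 and 13.8 to 30.7, and leukocyte markers to 13.4 to 37.6 and 2.29 to 3.16. Their part in the comparison was not tested.

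At P7 binucleated cells had less of these transcripts than mononucleated cells through the whole machinery, with exceptions inside most complexes. Of 48 genes 32 were lower and 0 higher (limma adjusted p under 0.05), against 2.06% of all genes in that direction. At an unadjusted p under 0.05, 42 were lower and 0 higher, against 1210 of all 12048 genes in either direction. The median log2 fold change was −1.53 (−3.28 to 0.02), beside 0.02 over all genes. All 3 binucleated values lay below all 3 mononucleated ones for 43 genes, against 14.7% of all genes. By role, 4 of 9 licensing, 5 of 6 helicase activation, 7 of 11 primase and polymerase, 5 of 6 clamp, 3 of 5 single-strand and lagging strand, 3 of 5 nucleotide supply and 5 of 6 fork protection and chromatin assembly genes were lower.

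The count was 21 without P7 binucleated replicate 2, 21 without P7 mononucleated replicate 3 and 38 without E18.5 binucleated replicate 1, a library of another age that the pooled variance includes. With the replicate number as a block, Cdc6, Mcm10 and Pole2 lost their calls (limma adjusted p = 0.0821, 0.0932 and 0.0821), and Orc1 and Rpa1 gained theirs (0.0328 and 0.0267). With the block limited to the P7 and adult libraries, the ages at which numbers were taken to pair libraries, the count was 28. Cdc6, Gmnn, Mcm10 and Pole2 lost their calls there (0.0664, 0.113, 0.0857 and 0.0718) and no gene gained one, with Orc1 at 0.119 and Rpa1 at 0.118. At P7, 0 of 7 fibroblast and 0 of 9 endothelial markers differed between the classes (limma), with fibroblast sums of 19.9 to 45.9 CPM for mononucleated and 18.9 to 30.7 for binucleated libraries. Leukocyte markers summed to 14.9 to 25.7 and 2.17 to 4.62 CPM. Only Lyz2 of their 5 passed (−2.83, limma adjusted p = 0.00116), while Laptm5, C1qb and Csf1r had 2.48, 1.96 and 2.38 and the list median was 1.96. Cardiomyocyte markers summed to 41870 to 45000 and 50460 to 55430. The part of these shifts in the result was not tested.

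**Figure D2:**
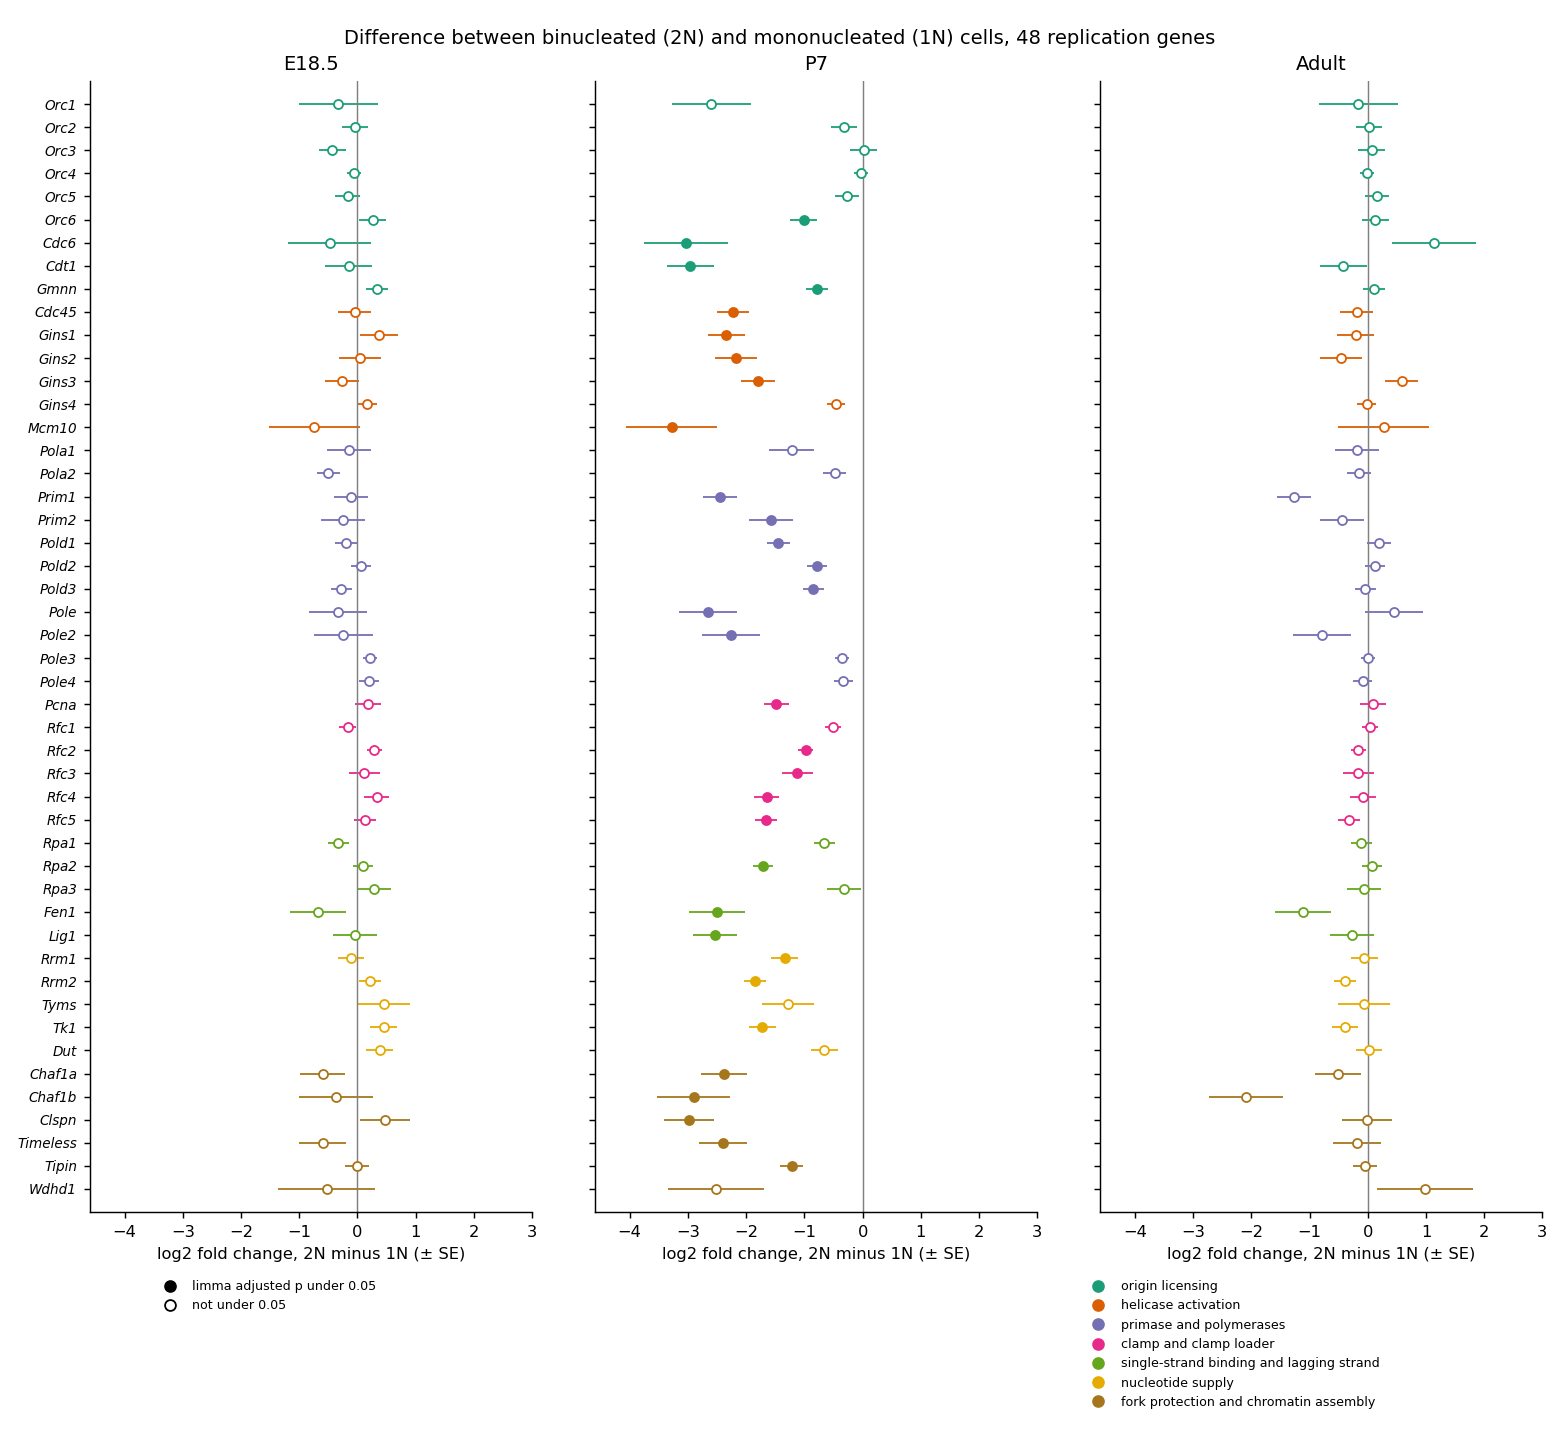
Log2 fold change of each of the 48 genes, binucleated (2N) minus mononucleated (1N), for the 3 ages, with bars of 1 standard error and colours by role. Filled points passed the limma test (adjusted p under 0.05): 32 at P7, all to the left of 0, and 0 at the other ages.

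Among licensing genes the loading factors separated the classes and most origin recognition subunits did not. Cdt1 (ENSMUSG00000006585), which brings the helicase to the origin, stood at 33.8, 53.5 and 47.0 CPM in P7 mononucleated and at 7.32, 3.60 and 6.71 in P7 binucleated libraries. The classes did not overlap, and the binucleated values lay also below all E18.5 values, which were 42.5, 34.3 and 31.8 in mononucleated and 35.6, 35.0 and 26.9 in binucleated libraries. It was 7.8-fold lower (log2 fold change −2.96 ± 0.40 SE, limma adjusted p = 0.000521, n = 3 per class). Orc6 (ENSMUSG00000031697), the smallest and most loosely held subunit of the recognition complex, stood at 17.9, 27.8 and 20.5 against 10.4, 9.55 and 12.4 CPM. Its difference was smaller, at 2.02-fold (−1.01 ± 0.23 SE, limma adjusted p = 0.0237), and was lost in 4 of the 18 fits without 1 library (up to 0.147 without mononucleated replicate 2).

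Orc3 (ENSMUSG00000040044), a core subunit of the recognition complex, stood at 105, 114 and 108 CPM in P7 mononucleated and at 120.5, 106 and 105 in P7 binucleated libraries. Those values overlapped, with a log2 fold change of 0.02 ± 0.23 SE. Orc2, Orc4 and Orc5 had −0.32, −0.02 and −0.27 with limma adjusted p of 0.782 or more. In the main fit 5 of the 48 passed in none of the 9 comparisons: these 4 subunits and the clamp loader gene Rfc1. The share of all genes that passed in none is not given here, so the count cannot be set against it. With the replicate block Rfc1 passed from P7 to the adult in binucleated cells. Orc1, the subunit whose protein is removed after licensing, had −2.60 ± 0.68 SE (limma adjusted p = 0.0634). Cdc6 was lower by 8.25-fold (−3.04 ± 0.72 SE, limma adjusted p = 0.0363) and Gmnn, the gene of geminin, by 1.72-fold (−0.78 ± 0.19 SE, 0.04). Leaving out 1 library ended the Cdc6 call in 9 of 18 cases and the Gmnn call in 12.

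Every helicase activation gene but Gins4 passed as lower in P7 binucleated cells, by unequal amounts. Cdc45 (ENSMUSG00000000028), which sits on the running helicase, stood at 32.7, 53.4 and 63.5 CPM in P7 mononucleated and at 12.2, 6.70 and 13.1 in P7 binucleated libraries. The lowest mononucleated value, that of replicate 1, was still above every binucleated one. The difference was 4.69-fold (−2.23 ± 0.28 SE, limma adjusted p = 0.000365). Gins1 (ENSMUSG00000027454), a GINS subunit, stood at 15.8, 22.6 and 23.7 against 4.79, 2.73 and 4.90 CPM and was 5.07-fold lower (−2.34 ± 0.32 SE, limma adjusted p = 0.000529). Gins2 and Gins3 had −2.18 and −1.80 (limma adjusted p = 0.0028 and 0.00234). The fourth GINS gene, Gins4 (ENSMUSG00000031546), stood at 39.8, 47.6 and 51.6 against 36.9, 30.3 and 33.7 CPM. Its values did not overlap either, but the difference of 1.37-fold did not pass (−0.46 ± 0.16 SE, limma adjusted p = 0.198). Mcm10, a scaffold of the activated helicase, had the largest fitted difference of all 48 (−3.28 ± 0.78 SE, limma adjusted p = 0.0367), a call lost in 9 of the 18 fits without 1 library.

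Primase and polymerase genes split by subunit. Prim1 (ENSMUSG00000025395), the catalytic primase subunit, stood at 43.2, 72.4 and 73.8 CPM in P7 mononucleated and at 10.8, 9.12 and 14.1 in P7 binucleated libraries. It was 5.48-fold lower with no overlap (−2.45 ± 0.29 SE, limma adjusted p = 0.000232). Pold1 (ENSMUSG00000038644), the catalytic subunit of polymerase delta, stood at 47.7, 52.1 and 59.8 against 16.4, 18 and 24.5 CPM, also apart, and was 2.74-fold lower (−1.45 ± 0.20 SE, limma adjusted p = 0.000624). Pole, the catalytic subunit of polymerase epsilon, had −2.66 (limma adjusted p = 0.00746) and its partner Pole2 −2.26 (0.0215). Pole4 (ENSMUSG00000030042), a small histone-fold subunit of epsilon, stood at 104, 136 and 137 against 102, 95.3 and 99.6 CPM, with −0.33 ± 0.17 SE (limma adjusted p = 0.553). Its histone-fold partner Pole3 had −0.35 ± 0.12 SE (0.171).

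The accessory delta genes Pold2 and Pold3 were lower by 0.78 and 0.85 log2 units (limma adjusted p = 0.0181 and 0.0171), and the large primase gene Prim2 by 1.57 (0.0404). Leaving out 1 library ended those 3 calls in 5, 4 and 11 of 18 cases, and that of Pole2 in 6. Pola1 and Pola2, the catalytic and regulatory subunits of polymerase alpha, had −1.22 and −0.48 and did not pass (0.137 and 0.389).

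The clamp and 4 of its 5 loader genes were lower. Rfc5 (ENSMUSG00000029363), a small loader subunit, stood at 43.4, 56.9 and 68.5 CPM in P7 mononucleated and at 16.6, 16.4 and 19.4 in P7 binucleated libraries. The binucleated values lay close together and far below, by 3.17-fold (−1.66 ± 0.19 SE, limma adjusted p = 0.00023). Rfc4 (ENSMUSG00000022881) stood at 56.0, 84.0 and 92.2 against 26.5, 19.6 and 26.9 CPM, 3.14-fold lower (−1.65 ± 0.22 SE, limma adjusted p = 0.000481). Rfc1 (ENSMUSG00000029191), the large subunit, stood at 71.6, 85.4 and 76.5 against 51.1, 54.1 and 58.0 CPM. Its values did not overlap, with 1.43-fold (−0.51 ± 0.14 SE, limma adjusted p = 0.0822). Pcna itself stood at 83.3, 150 and 140.3 against 41.2, 43.7 and 44.5 CPM and was 2.8-fold lower (−1.48 ± 0.22 SE, limma adjusted p = 0.000909). Rfc2 and Rfc3 had −0.98 and −1.12 (0.000529 and 0.0367). The Rfc3 call was lost in 6 of the 18 fits without 1 library.

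Of the single-strand binding complex only the middle subunit gene passed. Rpa2 (ENSMUSG00000028884) stood at 74.2, 95.4 and 104.2 CPM in P7 mononucleated and at 29.7, 22.0 and 32.3 in P7 binucleated libraries. It was 3.27-fold lower with no overlap (−1.71 ± 0.17 SE, limma adjusted p = 8.02e-05, tied with Rrm2 as the smallest of the 48). Rpa3 (ENSMUSG00000012483), the smallest subunit, stood at 28.5, 31.6 and 40.5 against 31.2, 22.3 and 26.9 CPM, which overlapped (−0.32 ± 0.29 SE, limma adjusted p = 0.911). Rpa1, the large subunit, gave −0.66 ± 0.18 SE and did not pass (limma adjusted p = 0.0751). Lig1 (ENSMUSG00000056394), the ligase of lagging strand pieces, stood at 34.1, 52.8 and 48.9 against 7.87, 6.39 and 8.73 CPM, 5.83-fold lower (−2.54 ± 0.38 SE, limma adjusted p = 0.00118). Fen1, the flap nuclease, had −2.50 ± 0.48 SE (0.00857, and up to 0.0515 without P7 mononucleated replicate 3).

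Nucleotide supply was led by ribonucleotide reductase. Rrm2 (ENSMUSG00000020649), its small subunit, which is made in S phase, stood at 244, 331 and 369 CPM in P7 mononucleated and at 84.1, 81.3 and 92.1 in P7 binucleated libraries. The groups were far apart, at 3.62-fold (−1.85 ± 0.19 SE, limma adjusted p = 8.02e-05). Tk1 (ENSMUSG00000025574), the cytosolic thymidine kinase, stood at 30, 41.2 and 47.2 against 14.0, 9.68 and 12.1 CPM, 3.28-fold lower (−1.72 ± 0.23 SE, limma adjusted p = 0.000481). Dut (ENSMUSG00000027203), which clears dUTP, stood at 74.8, 96.4 and 101.6 against 56.7, 56.0 and 58.3 CPM and did not pass (−0.66 ± 0.23 SE, limma adjusted p = 0.226). Rrm1, the large reductase subunit, was lower by 1.34 log2 units (0.00292). Tyms, the thymidylate synthase gene, had −1.28 ± 0.45 SE (0.222).

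Genes that guard the fork and rebuild chromatin had the lowest median of the 7 roles, at −2.46. Clspn (ENSMUSG00000042489), the checkpoint adaptor claspin, stood at 4.38, 8.57 and 4.13 CPM in P7 mononucleated and at 0.807, 0.434 and 0.789 in P7 binucleated libraries. On 356 against 37 recovered counts this was 7.93-fold (−2.99 ± 0.43 SE, limma adjusted p = 0.000725). Chaf1a (ENSMUSG00000002835), the large CAF-1 subunit, stood at 26.4, 25.5 and 26.4 against 4.69, 3.10 and 8.45 CPM, 5.22-fold lower (−2.38 ± 0.39 SE, limma adjusted p = 0.00251). Tipin (ENSMUSG00000032397), of the fork protection pair, stood at 39.3, 57.6 and 61.1 against 24.8, 19.7 and 22.2 CPM, 2.33-fold lower (−1.22 ± 0.20 SE, limma adjusted p = 0.00251). In none of these 3 genes did the classes overlap. Timeless, the partner of Tipin, had −2.40 (0.00356) and the CAF-1 gene Chaf1b −2.90 (0.0196, up to 0.0947 without P7 binucleated replicate 1). Wdhd1, a polymerase alpha anchor at the fork, had −2.52 ± 0.83 SE and did not pass (0.175).

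**Figure D3:**
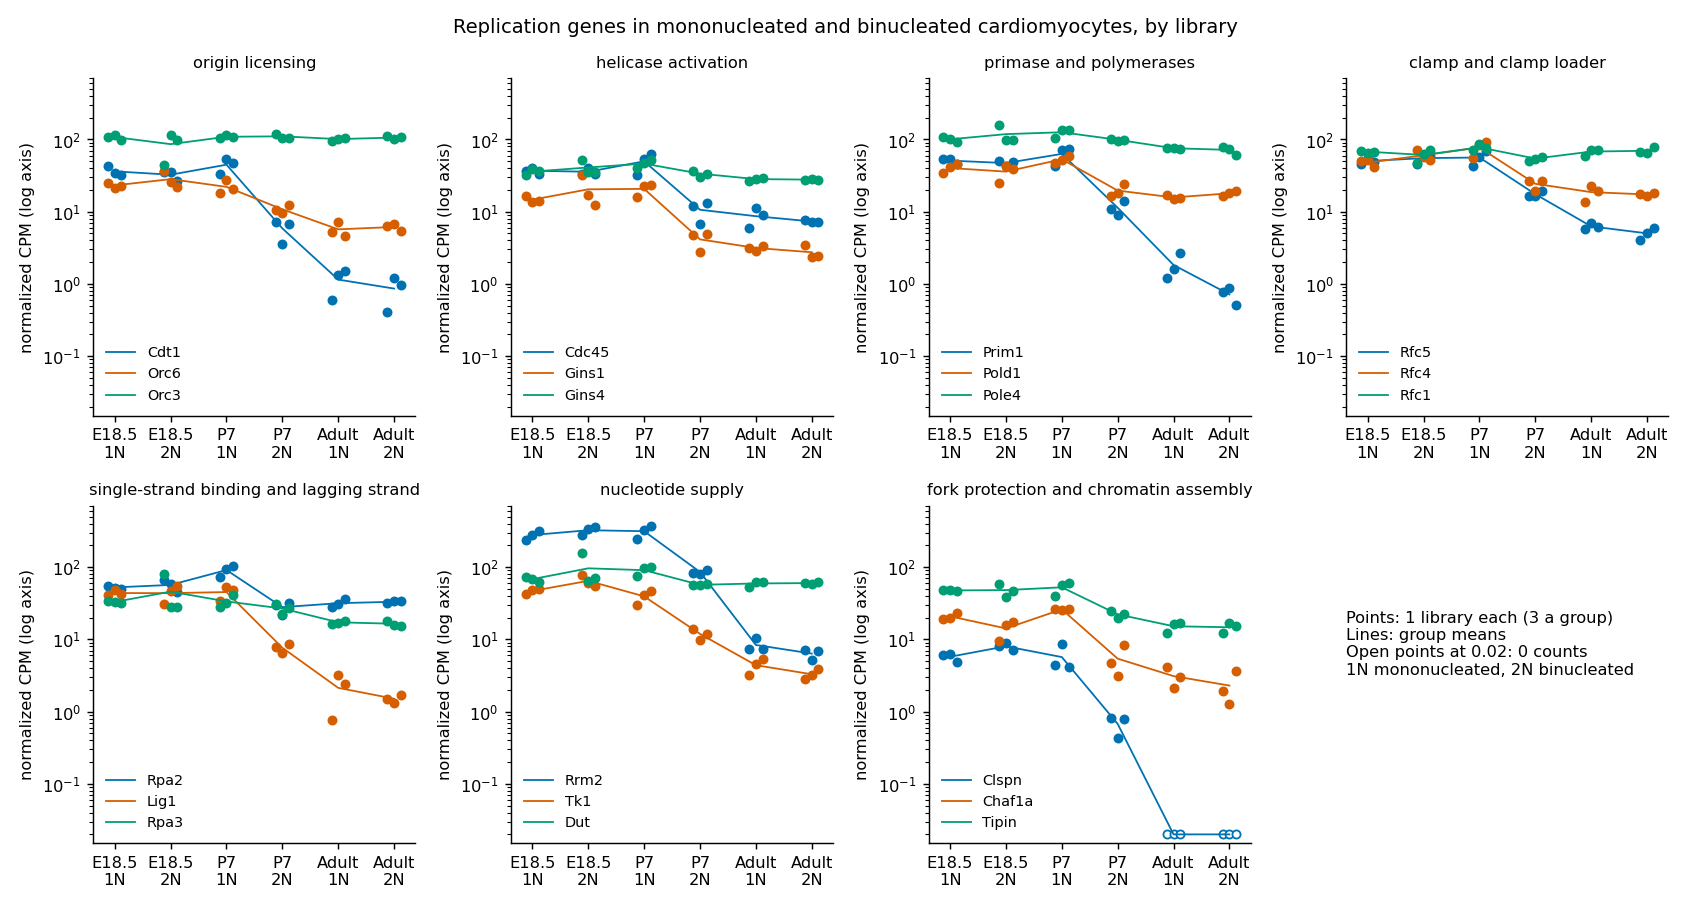
Normalized CPM (log axis) in the 6 groups for 3 genes of each role, 1 point for each library with lines through group means; open points mark 0 counts. Cdt1, Prim1, Lig1, Rrm2 and Clspn descend from P7 mononucleated to P7 binucleated and again to adult cells, while Orc3 and Rfc1 stay nearly level.

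Partner genes can be set against each other inside a library, where the scaling of libraries cancels. Cdt1 had 46.4 to 53 counts per 100 counts of its inhibitor gene Gmnn in P7 mononucleated libraries, then 7.37 to 13.4 in P7 binucleated and 0.35 to 1.48 in adult libraries of both classes. Gins1 had 39.8 to 47.6 per 100 of Gins4, then 9.02 to 14.5 and 8.43 to 12.4. The first ratio thus went on falling after P7, while the second was at its adult level in P7 binucleated cells. Rfc5 per 100 of Rfc1 was 60.6 to 89.6, then 30.4 to 33.5, then 6.06 to 9.65 in adult libraries. Pole per 100 of Pole3 was 37.2 to 41.7, then 4.51 to 14.6, then 3.37 to 12.2. Rrm2 per 100 of Rrm1 was 110 to 126, then 74.4 to 88.6, then 11.1 to 23.6. Rpa2 per 100 of Rpa1 was 35.3 to 40.9, then 14.8 to 21.2, then 21.3 to 30.6 in adult libraries. The P7 classes did not overlap in these 6 pairs, which was largely set by the choice, since each pair put a gene with a large P7 difference over one with a smaller difference. Such ratios show unequal change within a pair, with no test made, and E18.5 binucleated replicate 1 gave the highest or lowest E18.5 value in each of them.

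**Figure D4:**
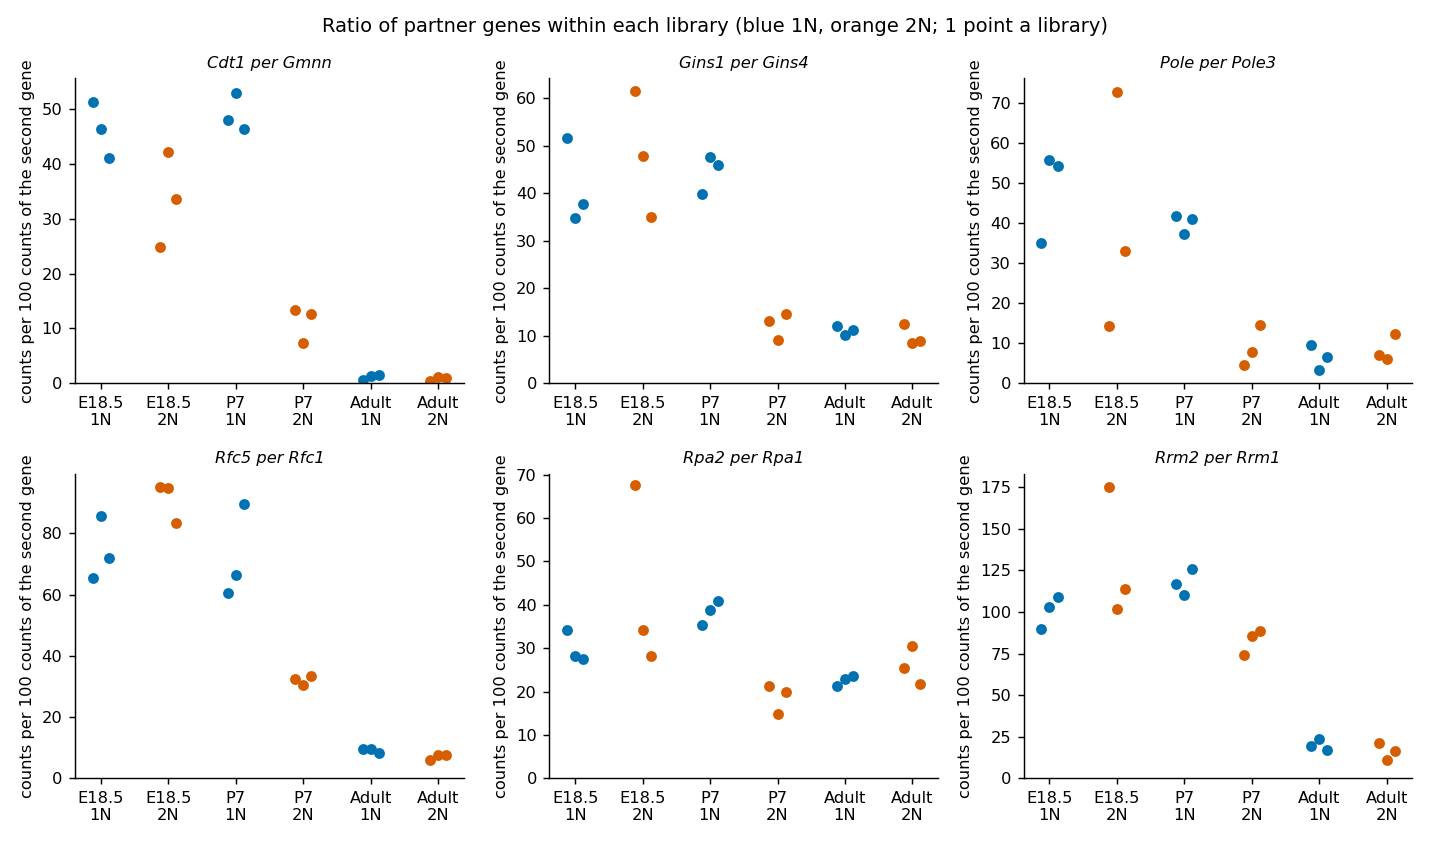
Recovered counts of the first gene per 100 counts of the second (vertical axis, linear from 0) for 6 pairs in each library of the 6 groups. P7 binucleated points (orange) lie below P7 mononucleated points (blue) in every panel. The adult points of both classes overlap in every panel but Rfc5 per Rfc1, where the binucleated points lie lower.

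Lists of related genes were read beside the 48 for the P7 classes, against the 2.06% of all genes that were lower. At an unadjusted p under 0.05, 1210 of all 12048 genes differed in either direction. Of 36 other replication genes 14 were lower and 0 higher, with a median of −1.11 (at an unadjusted p under 0.05, 27 lower). They included the cyclin E2 gene Ccne2 (−2.91, limma adjusted p = 1.68e-05), the maintenance methylation factor gene Uhrf1 (−2.84, 0.000717) and the histone chaperone gene Asf1b (−1.80, 0.000725). The 29 other nucleotide supply genes had a median of −0.13, and Dck, the deoxycytidine kinase gene, was lower (−1.64, limma adjusted p = 0.000983). Of 20 mitochondrial DNA replication and salvage genes 0 passed (limma, 3 at an unadjusted p under 0.05), with a median of 0.11. That list holds Rrm2b, the reductase subunit of resting cells (0.16), and the mitochondrial thymidine kinase gene Tk2 (0.14). Of 11 repair polymerase genes 0 passed (1 at an unadjusted p under 0.05), with a median of −0.12. At that background, lists of this size would hold few or no calls, so a count of 0 shows nothing particular to them. The difference between lists was not tested.

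From E18.5 to P7 few of these genes changed detectably in mononucleated cells. In them 2 of 48 genes were higher (against 10.7% of all genes) and 0 lower (against 7.84%). At an unadjusted p under 0.05 there were 6 higher and 1 lower, against 3711 of all 12048 genes in either direction. The median was 0.26 (−0.41 to 0.90), beside 0.01 over all genes, and 39 genes had a fold above 1. Rpa2 stood at 55.1, 52.1 and 50.2 CPM at E18.5 and rose to the P7 values given above, 1.72-fold with no overlap (0.78 ± 0.17 SE, limma adjusted p = 0.00429). The other gene, Rfc4, stood at 50.5, 52.0 and 41.0 CPM at E18.5 and had 1.59-fold (0.67 ± 0.22 SE, limma adjusted p = 0.0408). Its call was lost with the replicate block (0.0584) and in 10 of 18 fits without 1 library (up to 0.174). The count of 2 was 8 without E18.5 binucleated replicate 1, 11 in a fit of these groups alone and 17 with array weights, and 1 with the replicate block.

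In binucleated cells the same interval lowered 34 of 48 genes, against 17.7% of all genes in that direction. It raised 0 of the 48, against 2198 of all 12048 genes. At an unadjusted p under 0.05 it raised none of the 48, where 5551 of all genes differed in either direction. The median was −1.27 (−3.56 to 0.47), beside 0.03 over all genes. Rrm2 stood at 277, 336 and 362 CPM in E18.5 binucleated libraries, so that all lay far above the P7 values of the class, 3.77-fold (−1.91 ± 0.19 SE, limma adjusted p = 1.29e-06). Tk1 had 78, 61 and 55 CPM at E18.5 and fell 5.42-fold (−2.44 ± 0.23 SE, limma adjusted p = 7.15e-07). Clspn had 8.08, 8.96 and 7.05 CPM and fell 11.8-fold (−3.56 ± 0.43 SE, limma adjusted p = 1.07e-05). Among the 48 genes these were the 2 smallest adjusted p-values and the largest fold of the comparison. All 5 nucleotide supply genes were lower, Tyms with −2.14 (0.00161) and Dut with −0.64 (0.0434, lost in 14 of the 18 fits without 1 library and at 0.0572 with the block) among them.

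The drop in binucleated cells did not rest on E18.5 binucleated replicate 1, since 36 genes were lower without it. The count was 26 without P7 binucleated replicate 2, and 25 of the 34 calls held in each of the 18 fits. Over the same interval 7 of 7 fibroblast, 9 of 9 endothelial and 5 of 5 leukocyte markers fell in binucleated libraries, with medians of −5.44, −2.84 and −3.49. Pericyte and smooth muscle markers fell in 5 of 6 cases and erythroid ones in 2 of 5. Their part in the result was not tested. These age comparisons share libraries with the class comparison at P7, so they are not separate evidence for the low P7 binucleated values.

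The class difference itself changed with age. Tested as an interaction, 18 of 48 genes had a lower binucleated to mononucleated ratio at P7 than at E18.5, against 2.10% of all genes. A higher ratio was found for 0 of the 48, against 28 of all 12048 genes. At an unadjusted p under 0.05 there were 38 lower and 0 higher, against 1775 of all genes in either direction. The median of the difference was −1.60, beside a median of 0.00 over all genes. Rrm2 had a log2 class difference of 0.22 at E18.5 and −1.85 at P7, a change of −2.08 ± 0.27 SE (limma adjusted p = 0.000947). Rpa2 went from 0.10 to −1.71 (−1.81 ± 0.25 SE, 0.00136), Tk1 from 0.45 to −1.72 (−2.16 ± 0.32 SE, 0.00222) and Rfc5 from 0.13 to −1.66 (−1.80 ± 0.27 SE, 0.0027). The count was 24 without E18.5 binucleated replicate 1, 12 without each of E18.5 mononucleated replicate 1, P7 mononucleated replicates 2 and 3 and P7 binucleated replicate 2, and 40 with array weights. With the block limited to P7 and adult libraries it was 14, without Orc6, Gmnn, Pold1 and Tipin. Markers of other cells moved the same way in this test: 4 of 7 fibroblast, 3 of 9 endothelial and 2 of 5 leukocyte markers were lower, with medians of −3.80, −2.96 and −3.79. Their part in the result was not tested.

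In the adult the classes again did not differ detectably. At an unadjusted p under 0.05 there were 3, against 301 of all 12048 genes. By limma's adjusted p 0 of 48 passed, against 0.0913% of all genes, and 0 with voom weights. At that share a list of 48 would hold few or no calls, so the 0 shows nothing particular to these genes. Array weights gave 1, and leaving out adult binucleated replicate 3 gave 1. The median was −0.07, beside 0.00 over all genes. For Rpa2, a gene with ample counts, the classes lay close, at 28.3, 30.7 and 36.2 CPM in adult mononucleated and 31.9, 33.7 and 34.1 in adult binucleated libraries. Prim1 was lower in all 3 binucleated libraries (0.768, 0.866 and 0.517 against 1.21, 1.59 and 2.69 CPM) with −1.27 ± 0.29 SE, which did not pass (limma adjusted p = 0.184). The other genes at an unadjusted p under 0.05 were Chaf1b (−2.09 ± 0.63 SE) and Fen1 (−1.11 ± 0.48 SE), which did not pass either.

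As an interaction against P7, 7 of 48 genes had a higher class ratio in the adult, against 0.208% of all genes. They were Cdc45, Gins3, Pold1, Pcna, Rfc4, Rpa2 and Rrm2. At an unadjusted p under 0.05 there were 33, against 568 of all 12048 genes in either direction. Of the 48 differences 47 were above 0, with a median of 1.25 beside −0.03 over all genes. Rpa2 had the smallest adjusted p (1.78 ± 0.25 SE, limma adjusted p = 0.0163). This count was 0 without P7 binucleated replicate 2 or without P7 mononucleated replicate 3, 18 without E18.5 binucleated replicate 1 and 2 with the replicate block, which Rpa2 and Pold1 passed (both 0.0181). With the block limited to P7 and adult libraries it was 1, Rpa2.

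From P7 to the adult most of these transcripts fell in mononucleated cells. Of 48 genes 42 were lower, against 22.3% of all genes in that direction. Of the 48, 0 were higher, against 2303 of all 12048 genes. At an unadjusted p under 0.05 none of the 48 was higher, where 5861 of all genes differed in either direction. The median was −2.08, beside −0.01 over all genes. Rrm2 stood at 7.36, 10.4 and 7.35 CPM in adult mononucleated libraries, 37.4-fold below P7 (−5.22 ± 0.19 SE, limma adjusted p = 1.58e-11). Prim1 was 34.8-fold lower (−5.12 ± 0.29 SE, 1.58e-09). Cdt1 stood at 0.604, 1.31 and 1.53 CPM and was 40-fold lower (−5.32 ± 0.40 SE, 2.82e-08).

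A few genes came to the limit of detection there. Clspn had 0 counts in all 6 adult libraries. Against a floor of 3 counts over the group (0.0612 CPM), it was at least 94.3-fold lower in mononucleated cells than at P7. Cdc6 had 1568 counts in P7 mononucleated and 2 in adult mononucleated libraries, and the ratio of levels was 623 (172 to 5150, exact 95% interval from the counts). Mcm10 had 787 and 2, a ratio of 313 (86.3 to 2590). Intervals and floors cover counting error only, since amplified reads without molecular identifiers are not independent molecules. With Clspn set to its bound the median stayed −2.08. The 6 genes that did not pass were Orc2, Orc3, Orc4, Orc5, Rfc1 and Gmnn.

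In binucleated cells, which were already lower at P7, fewer genes fell. In them 25 of 48 genes were lower, against 19.7% of all genes, and 1 was higher, against 17.3%. At an unadjusted p under 0.05 there were 29 lower and 2 higher, against 5424 of all 12048 genes in either direction. The median was −0.68, beside −0.03 over all genes. Rrm2 stood at 7.09, 5.13 and 6.89 CPM in adult binucleated libraries, 13.5-fold below P7 (−3.76 ± 0.19 SE, limma adjusted p = 4.85e-10). Prim1 was 15.3-fold lower (−3.94 ± 0.29 SE, 3.05e-08). Clspn was at least 11.3-fold lower. In both classes 25 of the 48 genes fell, among them all 6 fork protection and chromatin assembly genes. Over all genes the share that fell in both classes was not given, and it can be at most the 19.7% of binucleated cells. Cdc45, Gins1, Pold1, Pcna, Rfc4 and Rpa2 had −0.48, −0.56, −0.11, −0.53, −0.48 and 0.27 in binucleated cells and did not pass there. Leaving out 1 library gave 20 to 31 calls, and 19 of the 26 held in each of the 18 fits. Chaf1a, Timeless, Tipin and Wdhd1 were among the 7 lost in some.

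From P7 to the adult geminin went the other way in binucleated cells, and it was singled out after its values were seen. Gmnn stood at 54.8, 48.8 and 53.1 CPM in P7 binucleated libraries and at 118, 104 and 101 in adult ones, 2.06-fold higher (1.05 ± 0.19 SE, limma adjusted p = 0.000352), with no overlap. In mononucleated cells it stood at 70.3, 100.9 and 101.4 CPM at P7 and at 93.6, 106 and 103 in the adult, which overlapped (0.17 ± 0.19 SE, limma adjusted p = 0.516). At E18.5 it stood at 73.9 to 82.8 CPM in mononucleated and 80.1 to 144 in binucleated libraries. The adult binucleated values thus lay within the E18.5 range of that class. The top of that range, 144 CPM, was the value of replicate 1, the library that stood apart. Its fellow replicates lay below all adult binucleated values. Geminin blocks Cdt1, whose transcript stood at 0.414 to 1.53 CPM over the 6 adult libraries.

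Endothelial markers rose from P7 to the adult in both classes (8 of 9 in mononucleated and 9 of 9 in binucleated cells), with sums of 9.46 to 22.0 CPM at P7 and 74.6 to 102 in the adult. Leukocyte markers rose in 4 of 5 cases in each class, but in mononucleated cells Lyz2 fell (−1.24, limma adjusted p = 0.0272) and the sum went from 14.9 to 25.7 CPM at P7 to 11.5 to 16.4 in the adult. Of 6 pericyte and smooth muscle markers Pdgfrb, Rgs5 and Kcnj8 rose in both classes, with list medians of 0.63 in mononucleated and 1.93 in binucleated cells. Acta2 and Cspg4 fell in both and Tagln in mononucleated cells, and the sum went from 636 to 905 CPM at P7 to 163 to 299 in the adult. Their part in the late fall was not tested. For 8 of the 48 genes over 10% of the exon bases overlap another gene on the opposite strand in GENCODE M21. The shares were 78.8% for Fen1, 67.3% for Gins2, 52.5% for Chaf1a and 29.8% for Orc2, and 15.1%, 12.7%, 10.8% and 10.7% for Rfc2, Rfc4, Orc1 and Rfc5. The library kit keeps strand, but the labels do not say whether counting used it. Pcna and Tyms have pseudogenes named after them, so shared reads leave their levels uncertain. Pseudogenes were looked for by name only, so the other genes were not checked for shared reads by sequence.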

How the data were processed

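RNA was sequenced from 18 libraries of sorted cells. Per the labels' protocols, cells were sorted into Trizol-LS and libraries were made with stranded mRNA and amplification kits. The submitters' processing notes name STAR, limma and build mm9. Versions, the read counter and gene filters: not given in the sources used here. The authors deposited log2 values for 12048 genes. These equal log2 of a whole count plus 0.5, times 1 factor per library (100% within 0.001), so fold changes of genes with few counts come out too small. Depth was 14833334 to 22690952 recovered counts.

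The test was limma's (version 3.58.1, R 4.3.3), fitted to the deposited log2 values with 6 group means, all 18 libraries, 12 residual degrees of freedom, an intensity trend and Benjamini-Hochberg adjustment over all genes. A count test had been foreseen for count files and was not used. Alternatives were quantile normalization, recentring, no trend, array weights, voom, log2 of CPM plus 1, a mean of at least 20 counts, the contrast groups alone, a replicate block and leaving out each library. A block limited to the P7 and adult libraries was added after seeing the data. Same-numbered libraries deviated together at P7 (r of 0.182 to 0.236) and in the adult (0.261 to 0.327). At E18.5 they did so less (0.054 to 0.158), with −0.095 to 0.002 between libraries of other numbers. Numbers were taken to pair libraries at P7 and in the adult, which the labels do not state.

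Members and lists were chosen with earlier results of these data known. For values in every library, the rule took from each role the 2 genes with the smallest adjusted p at P7 and the 1 with the smallest difference; Pcna was added. Symbols came from GENCODE M21 by Ensembl identifier (11927 matched). Not every gene of the lists is reported here. Nothing in the labels says that replicates came from different animals, and p-values therefore reflect only how these samples vary, which may be technical variation. The fit was tested on simulated data.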

Additional observations from a re-analysis of the deposited data

Results flagged for a closer look

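The class difference (binucleated against mononucleated) of 18 replication genes differed between P7 and E18.5 by the interaction test. Values are the log2 difference of the class differences, P7 minus E18.5. In licensing they were −1.27 for Orc6, −2.81 for Cdt1 and −1.12 for Gmnn. Among helicase activators they were −2.18 for Cdc45, −2.71 for Gins1 and −2.23 for Gins2. Prim1 had −2.34 and Pold1 −1.26. On the clamp side Pcna had −1.66, Rfc2 −1.27, Rfc4 −1.98 and Rfc5 −1.80. Rpa2 had −1.81 and Lig1 −2.50, Rrm2 −2.08 and Tk1 −2.16, Clspn −3.47 and Tipin −1.22. Of these 18 calls 12 held without each library in turn; Orc6, Gmnn, Gins2, Pold1, Lig1 and Tipin were lost without at least 1.

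Between the adult and P7 the class difference of 7 genes differed, all upward. The values, adult minus P7, were 2.04 for Cdc45, 2.37 for Gins3, 1.64 for Pold1, 1.57 for Pcna, 1.57 for Rfc4, 1.78 for Rpa2 and 1.47 for Rrm2. Each of the 7 was lost without at least 1 library, and both interactions use the same 6 P7 libraries.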

How the results depend on the processing

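No direction of a called gene turned under any alternative run. The counts of genes past the threshold (main value first) moved by over 1.5 times as follows. In the adult class comparison array weights gave 1 in place of 0. From E18.5 to P7 in mononucleated cells, 2 became 1 after recentring, without the intensity trend and with the replicate block, 17 with array weights, 4 with log2 of CPM plus 1 and 11 with the contrast groups alone. The P7 to E18.5 interaction went from 18 to 40 with array weights. The adult to P7 interaction went from 7 to 4 after recentring, without the trend, with a mean of at least 20 counts and with the contrast groups alone, to 1 with voom, to 28 with array weights and to 20 with log2 of CPM plus 1. With the replicate block it was 2, and 1 with a block limited to the P7 and adult libraries. The cause was not tested.

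Without 1 library the counts ran from 0 to 0 at E18.5, 21 to 38 at P7 and 0 to 1 in the adult between classes. They ran from 1 to 8 and 26 to 36 from E18.5 to P7 in mononucleated and binucleated cells, 39 to 44 and 20 to 31 from P7 to the adult, and 12 to 24 and 0 to 18 for the interactions. The replicate block changed the P7 class count from 32 to 31 and gave 32, 41 and 26 in the other age comparisons and 19 in the first interaction. Beside the genes named with the block in the report it ended the calls of Orc1 from E18.5 to P7 (0.054) and from P7 to the adult (0.0507) and of Gins3 from P7 to the adult (0.057) in binucleated cells, of Dut from P7 to the adult in mononucleated cells (0.0646) and of Orc6 in the first interaction (0.055). It added Pold3 and Rfc1 from P7 to the adult in binucleated cells (0.0365 and 0.0408) and Pole and Rrm1 in the first interaction (0.0454 and 0.0495), both absent with the limited block (0.153 and 0.123), which gave 28 for the P7 class comparison and 14 for the first interaction. Depth limits statements on Clspn, Cdc6, Mcm10 and Chaf1b, which had 0 counts in some adult libraries.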
